A study of Mus musculus with 4 samples.

Results

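Hnrnpl, the gene that was targeted, and its paralog Hnrpll were followed through RNA sequencing of total thymocytes from 2 hnRNP L knockout (KO) and 2 wild-type (WT) mice, with 1 library per mouse. They are 2 of the 22730 gene symbols in the transcript tables, and each has 1 transcript row there. They were chosen by symbol, and so were their junctions: 78 exon-exon junctions for each gene, of which 12 are known and 66 are putative pairings of the same exons, among 1921627 junctions in all. All 4 mice are labelled with one mixed background that names C57BL/6, the LckCre transgene, a ROSA26 reporter allele with membrane tdTomato and EGFP, and CD45.1. LckCre expresses the Cre recombinase from the Lck promoter, which is active in developing T cells. The sources used here give neither the deleted exons of Hnrnpl, nor the Cre status, age and sex of each mouse.

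hnRNP L and its paralog hnRNP LL are RNA-binding proteins with several RNA recognition motifs, and they bind CA-rich stretches of pre-mRNA. Both are known in T cells for the skipping of the variable exons of CD45, and hnRNP LL is known to rise when T cells are activated. In human cells hnRNP L also limits its own mRNA and that of HNRNPLL, by favouring an extra exon in the sixth intron of each gene that sends the transcript to nonsense-mediated decay. The name Hnrpll is the older symbol of Hnrnpll.

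The genes share their build. Both have 13 exons, and 9 of the 11 internal exons have the same length in both, from 58 nt in exon 11 to 238 nt in exon 3. Exon 8 has 281 nt in Hnrnpl and 218 nt in Hnrpll, and exon 12 has 96 nt in Hnrnpl and 99 nt in Hnrpll. Over the 9 exons of equal length, 60.4% of 1067 bases are identical, from 30.6% in exon 7 to 74.2% in exon 5. The lines below give the last 30 bases of exon 6 and the first 30 bases of exon 7 in both genes, the boundary that the junction results turn on, with the bases that differ in capitals. They come from GENCODE M21 transcripts (GRCm38; Hnrnpl on the plus strand of chromosome 7, Hnrpll on the minus strand of chromosome 17) whose exon and intron lengths match the junction tables.
Hnrnpl exon 6 to exon 7: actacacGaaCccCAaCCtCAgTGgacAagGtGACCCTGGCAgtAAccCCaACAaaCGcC
Hnrpll exon 6 to exon 7: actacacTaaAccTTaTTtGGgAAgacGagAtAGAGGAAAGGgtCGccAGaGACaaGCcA
Of these 60 positions 32 differ, 11 on the exon 6 side and 21 on the exon 7 side. The longest run of bases that the 2 transcripts share is 20 nt, so no stretch of 30 nt is found in both. Hnrpll shares no run of 30 nt with a transcript of any other gene in that annotation. Hnrnpl shares 6.48% of its runs of 30 nt with 1 other gene, the processed pseudogene Gm45246, and these lie in exons 8 to 10. All 29 runs of 30 nt that span the junction of exon 9 with exon 10 are among them, so reads of that part could be split between the gene and the pseudogene.

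Reads assigned to genes numbered 27548708 and 28677506 in KO replicates 1 and 2, and 41775795 and 51544714 in WT replicates 1 and 2, and junction reads 3302915 and 3515308 in the KOs, and 4759678 and 6146421 in the WTs. Ddx3y, on the Y chromosome, had 4116 reads in KO replicate 1 and 1 to 17 in the other libraries. Xist had 222 reads in KO replicate 1 and 57852 to 87390 in the others. By these genes KO replicate 1 was male and KO replicate 2 and both WTs were female, so the sex of the mice differs within the KO group. Sex therefore cannot be told apart from other differences between KO replicate 1 and the other libraries. All 12 thymocyte markers were detected in every library, with a summed level of 22028 and 18212 CPM (read counts scaled to a common library size with the trimmed mean of M values, TMM) in the KOs and 21787 and 21589 CPM in the WTs. Markers of other cell types were present at lower sums: 42.4 and 35.8 CPM in the KOs and 38.7 and 39.4 CPM in the WTs over 7 B cell markers, 155 and 157 CPM in the KOs against 139 and 139 CPM in the WTs over 8 myeloid markers, and 231 and 266 CPM in the KOs against 224 and 239 CPM in the WTs over 10 stromal and endothelial markers. The erythroid markers summed to 287 and 60.5 CPM in the KOs and 87.2 and 78.4 CPM in the WTs. Of these 5 lists the thymocyte, B cell and erythroid sums were higher in KO replicate 1, which kept more Hnrnpl, than in KO replicate 2, and the part of these cells in the level of Hnrnpl was not tested. In bulk RNA, fewer cells that hold a transcript and less of it per cell cannot be told apart.

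Hnrnpl (NM_177301, mm9 chromosome 7, 29595909 to 29607285, plus strand) was below the WT range in both KO libraries, and the KO libraries differed widely from each other. Both KOs were below both WTs for 2945 of the 13733 genes tested, or 21.4%, so this order alone is common. It had 12903 and 6453 reads in KO replicates 1 and 2, against 33270 and 41477 in WT replicates 1 and 2. Scaled by library these are 467 and 208 CPM in the KOs and 854 and 813 CPM in the WTs, or 338 ± 183 CPM in KO and 834 ± 29.3 CPM in WT (SD, n = 2 each). The level in KO replicate 1 was 2.24 times that in KO replicate 2, while the WTs were within 1.05 times of each other. By edgeR's quasi-likelihood test with Benjamini-Hochberg adjustment over all genes, the log2 fold change of -1.30 (SE 0.42) did not pass (adjusted p = 0.486). By unadjusted p it ranked 978 of 13733 genes tested, of which 1, or 0.00728%, was called. Leaving out KO replicate 1 gave -2.01, and leaving out KO replicate 2 gave -0.84. In each of these fits the lone KO library is assumed to vary like the WT libraries, so only the effect size is given.

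Hnrpll (NM_144802, mm9 chromosome 17, 80428827 to 80461674, minus strand) had overlapping levels in the genotypes. It had 5590 and 6984 reads in the KOs and 7020 and 10450 in the WTs. The scaled levels were 202 and 226 CPM in the KOs and 180 and 205 CPM in the WTs, so KO replicate 1 lay within the WT range and KO replicate 2 above it. The means were 214 ± 16.4 CPM in KO and 193 ± 17.4 CPM in WT (SD, n = 2 each), and their difference was close to the spread between replicates. The log2 fold change was 0.15 (SE 0.13) and did not pass the edgeR test (adjusted p = 0.666). It was 0.22 without KO replicate 1 and 0.07 without KO replicate 2, and it moved as much with the WTs, to 0.07 without WT replicate 1 and 0.25 without WT replicate 2. A p above the threshold does not show that the level was the same.

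By reads per length of transcript, Hnrnpl was the more abundant of the pair in every library, but not by known-junction reads in KO replicate 2. In the authors' deposited RPKM values, which divide reads by the length of the transcript and the depth of the library, Hnrnpl stood at 87.2 and 39.9 in the KOs and 156 and 158 in the WTs, and Hnrpll at 26.0 and 29.7 in the KOs and 22.6 and 27.4 in the WTs. Among the tested genes this placed Hnrnpl at rank 190 and 560 by RPKM in the KOs and at rank 150 and 95 in the WTs, and Hnrpll at 1154 and 883 in the KOs and 1468 and 1177 in the WTs. The ratio of Hnrpll to Hnrnpl reads per length was 0.298 and 0.744 in KO replicates 1 and 2, against 0.145 and 0.173 in the WTs. Both KO libraries were thus above both WTs, by 1.88 and 4.69 times the geometric mean of the WTs. On the log2 scale KO minus WT was 1.57, with means of -1.09 ± 0.93 in KO and -2.66 ± 0.18 in WT (SD, n = 2 each). The two-sided exact permutation test gave p = 0.333, the smallest that 2 against 2 libraries allow. Known-junction reads gave a ratio of 0.368 and 1.09 in KO replicates 1 and 2, and 0.195 and 0.220 in the WTs. By these reads, which are not scaled to length, Hnrpll was above Hnrnpl in KO replicate 2.

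**Figure D1:**
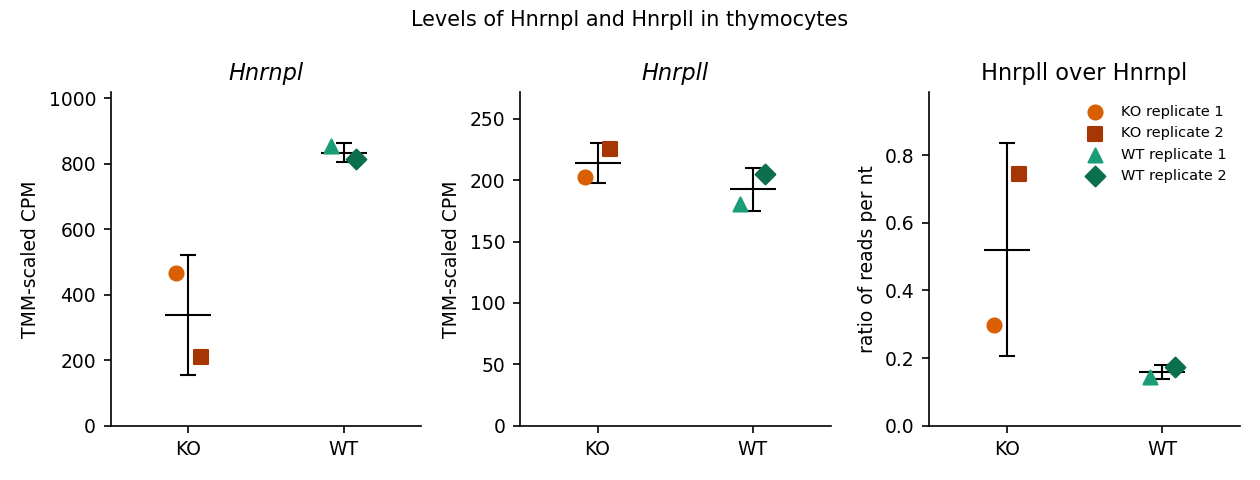
Level of Hnrnpl (left) and Hnrpll (middle) in TMM-scaled CPM, and the ratio of their reads per nucleotide of transcript (right), in each KO and WT library; horizontal lines are means and error bars SD (n = 2 each). Hnrnpl is at 467 and 208 CPM in KO against 854 and 813 CPM in WT, Hnrpll overlaps between the genotypes, and the ratio is highest in KO replicate 2 at 0.744.

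Junction reads show which exons of Hnrnpl were still joined in the KO libraries. One junction of Hnrnpl was read in both KO libraries and in neither WT library: the putative junction of exon 1 with exon 7 (mm9 chromosome 7, 29596187 to 29603480), with 2 and 5 reads in KO replicates 1 and 2 and 0 and 0 in the WTs. It leaves out exons 2 to 6, which hold 613 nt of coding sequence, a number that is not a multiple of 3. Read from the annotated start codon, a transcript with exon 1 joined to exon 7 has 186 codons before its first stop codon, which lies in exon 8, against 586 codons in the full-length form. The lines below give the annotated boundaries that this junction draws on, from the same GENCODE M21 transcript on the plus strand of chromosome 7. The stretches that exon 1 to exon 7 reads bring together are in capitals, first the last 30 bases of exon 1 and then the first 30 bases of exon 7.
Hnrnpl exon 1 to exon 2: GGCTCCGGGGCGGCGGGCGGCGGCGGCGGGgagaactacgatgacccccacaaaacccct
Hnrnpl exon 6 to exon 7: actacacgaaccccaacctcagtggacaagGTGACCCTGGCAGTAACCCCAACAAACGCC

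The known junction of exon 1 with exon 2 had 15 and 2 reads in KO replicates 1 and 2, and 42 and 37 in the WTs. Of all junction reads that leave exon 1, those that go to exon 7 made up 2 of 19 in KO replicate 1, or 10.5% (exact Clopper-Pearson 95% interval 1.30 to 33.1%), and 5 of 7 in KO replicate 2, or 71.4% (29.0 to 96.3%). In the WTs they were 0 of 42 and 0 of 37, which allow shares of up to 7.14% and 8.11%. The interval of KO replicate 2 lies above the WT limits, while that of KO replicate 1 includes them. Seen from exon 7, the junction made up 0.615% (0.0746 to 2.21%) and 4.46% (1.47 to 10.1%) of the reads that enter exon 7 in the KOs, and 0 of 742 and 0 of 991 reads in the WTs, which allow up to 0.404% and 0.303%. Exon 1 was thinly read in all libraries, so its shares rest on few reads. Intervals and limits cover counting error only.

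**Figure D2:**
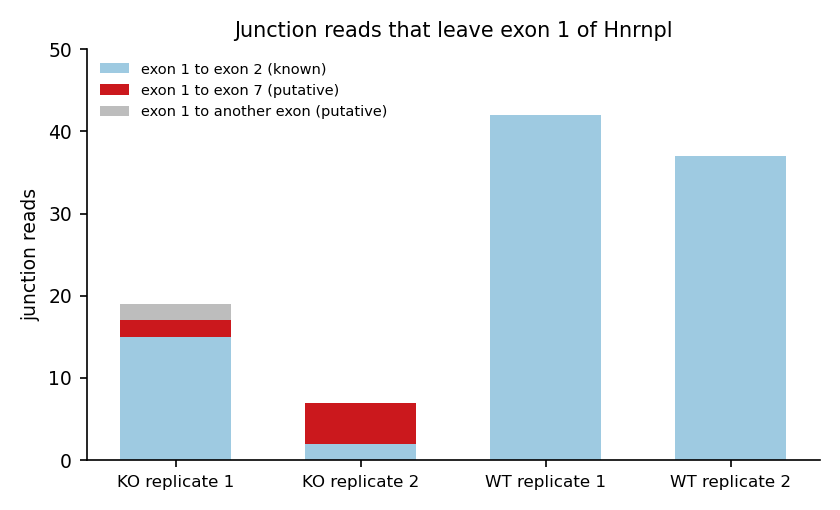
Number of junction reads that leave exon 1 of Hnrnpl in each library, stacked by the exon they join. Reads to exon 7 number 2 and 5 in the KO libraries and 0 in both WT libraries, where 42 and 37 reads go to exon 2.

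Of 62809 putative junctions that had a read, 65, or 0.103%, had 0 reads in both WTs and at least 2 in both KOs. By summed KO reads the Hnrnpl junction stood at rank 7 among these, tied with 4 others. The pattern was not planned and was set with this junction's counts known. A junction with a single read could not meet it, so the share does not measure how rare the pattern is. The opposite pattern, 0 reads in both KOs and at least 2 in both WTs, which are the deeper libraries, was met by 218. With 7 reads in all the junction was below the minimum of 10 reads for the usage test. With a minimum of 5 reads, chosen after seeing the data, it did not pass edgeR's diffSpliceDGE test (adjusted p = 0.99995).

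The other putative Hnrnpl junctions held only single reads. In KO replicate 1 these were exon 1 with exon 11, exon 1 with exon 12 and exon 3 with exon 8, and KO replicate 2 had none. WT replicate 1 had 1, exon 8 with exon 12, and WT replicate 2 had 6, none of which leaves exon 1. In Hnrpll, 4 putative junctions held 7 reads in all, 1 in KO replicate 1, 0 in KO replicate 2 and 3 in each WT, and none joined exon 1 to a later exon than exon 2. The junction tables pair only the 13 exons of each gene's transcript. GENCODE M21 places an extra exon of 70 nt in the sixth intron of Hnrnpl and one of 83 nt in that of Hnrpll, both in transcripts marked for nonsense-mediated decay, and junctions into these exons were not measured. First exons upstream of exon 1, which that annotation also has for Hnrnpl, were not measured either.

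The known junctions show how the reads of Hnrnpl were spread along the transcript. All 12 had reads in every library, and together they held 3336 and 1374 reads in the KOs and 8280 and 10623 in the WTs. Scaled to junction reads, this is 56.6% and 21.3% of the WT mean in KO replicates 1 and 2. For 10 of the 12, both KOs were below both WTs, against 17.2% of all 93895 known junctions with at least 10 reads. The exceptions were exon 2 with exon 3, where KO replicate 1 lay between the WTs, and exon 11 with exon 12. All 12 junctions lie in the same transcript and are not independent, so their count largely restates the lower level of Hnrnpl.

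In KO replicate 1 the known junctions stood at from 51.1% of the WT mean at exon 3 with exon 4 to 83.6% at exon 11 with exon 12, with a median of 59.2%. In KO replicate 2 the first part of the transcript had the lower values. There the 6 junctions from exon 1 to exon 7 stood between 7.22% (exon 1 with exon 2) and 22.5%, and the 6 from exon 7 to exon 13 between 22.5% and 43.8% (exon 11 with exon 12). Junctions from exon 1 to exon 7 made up 53.3% (95% interval 51.6 to 55.0%) and 43.5% (40.9 to 46.2%) of the known-junction reads in KO replicates 1 and 2, against 56.3% (55.3 to 57.4%) and 54.4% (53.4 to 55.3%) in the WTs. KO replicate 2 was thus below the others by more than counting error. Leaving out the junction of exon 11 with exon 12 the shares were 58.7% and 49.9% in the KOs, and 57.8% and 60.4% in the WTs, so that KO replicate 1 then lay between the WTs. In Hnrpll the same share was 59.4% and 58.9% in the KOs and 59.9% and 58.2% in the WTs.

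**Figure D3:**
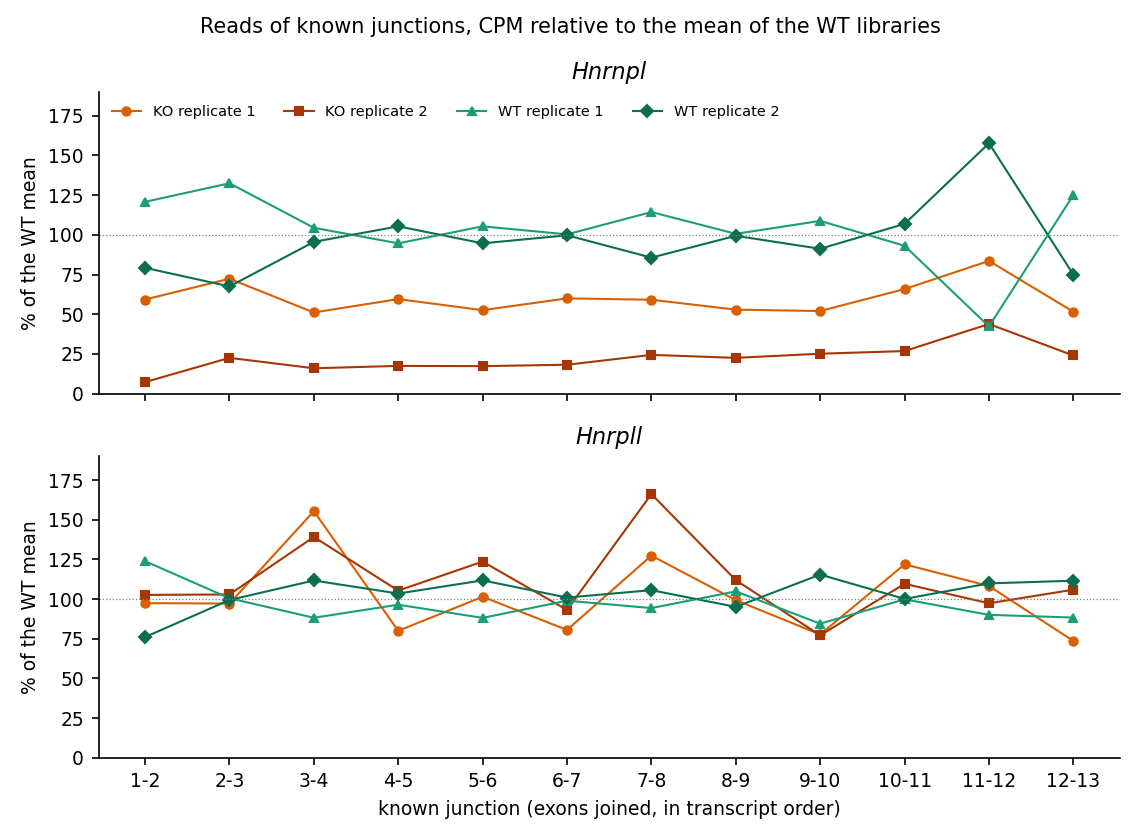
Reads of each known junction of Hnrnpl (top) and Hnrpll (bottom) in transcript order, as CPM in percent of the mean of the 2 WT libraries, 1 line per library. Hnrnpl runs at a median of 59.2% in KO replicate 1 and 22.5% in KO replicate 2, with the WT libraries split at exon 11 with exon 12, while Hnrpll runs from 73.7% to 166% in the KO libraries.

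WT replicate 1 stood apart at the junction of exon 11 with exon 12 of Hnrnpl. This junction had 305 and 175 reads in KO replicates 1 and 2, and 212 and 1062 in WT replicates 1 and 2. Relative to the junction before it, exon 10 with exon 11, this is 1.24 and 1.61 times in the KOs, and 0.445 and 1.45 times in the WTs. WT replicate 1 over WT replicate 2 was -1.90 on the log2 scale. Of the 1050 known junctions with at least 1000 WT reads, 2 were as low or lower, this one included. Gaps in the other direction were not counted. Both the junction and the direction were picked from these same data, so the count is a description only. The next junction, exon 12 with exon 13, had 332 and 169 reads in the KOs, and 1106 and 891 in the WTs, with WT replicate 1 the higher of the WTs. The reads were also uneven along the gene in every library: exon 3 with exon 4 held 1023 and 349 reads in the KOs and 2873 and 3531 in the WTs, more than any other Hnrnpl junction, and exon 1 with exon 2 held the fewest.

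The summed known junctions of Hnrpll stood at 101% and 112% of the WT mean in KO replicates 1 and 2. Both KOs were above both WTs at 3 of the 12, against 16.8% of all known junctions, and below both at 2, against 17.2%. The highest single value was at exon 7 with exon 8, at 127% and 166% of the WT mean in the KOs (117 and 167 reads, against 119 and 179 in the more deeply sequenced WTs). Exon 3 with exon 4 stood at 155% and 139% in the KOs (150 and 147 reads, against 117 and 199 in the WTs). Of the 2 junctions below, exon 9 with exon 10 stood at 77.7% and 77.2% in the KOs (81 and 88 reads, against 121 and 222 in the WTs).

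Whether any junction was used more or less relative to the rest of its gene was tested with edgeR's diffSpliceDGE over 95139 junctions, of which 4, or 0.0042%, were called. All 24 known junctions of the pair were tested and 0 were called. None had an unadjusted p under 0.05. The log2 change in relative usage, KO over WT, ran from -0.24 (exon 1 with exon 2) to 0.70 (exon 11 with exon 12) in Hnrnpl, and from -0.46 (exon 9 with exon 10) to 0.47 (exon 3 with exon 4) in Hnrpll. The smallest p was 0.347 in Hnrnpl and 0.118 in Hnrpll, with adjusted p of 0.99999 for both by diffSpliceDGE. This test averages over KO replicates whose upstream shares differ, as given above.

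Related splicing proteins and the decay machinery were read from lists. hnRNP L belongs with the PTB proteins, which repress exons through pyrimidine-rich sites. Of 25 PTB family and hnRNP genes reported here, all were tested and 0 were called by edgeR. By edgeR 2 had an unadjusted p under 0.05, both higher in KO, beside 1360 of all 13733 genes, of which 864 were higher and 496 lower, so the list's share was close to that of all genes. DESeq2, which called 103 genes in all, called 0 of the 25. The median log2 fold change was 0.12, with 15 positive and 10 negative, beside a median of 0.008 and 51.1% positive over all 13733 genes. The PTB genes were close to 0, with Ptbp1 at 0.12 (SE 0.15), Ptbp2, the form best known from neurons, at 0.10 (SE 0.11) and Rod1, the older symbol of Ptbp3, at -0.12 (SE 0.15). The 2 with an unadjusted p under 0.05 were Hnrnpa2b1 and Hnrnpa3, which encode RNA-binding proteins of the hnRNP A/B group. Hnrnpa2b1 had 726 and 779 CPM in the KOs and 563 and 591 CPM in the WTs (log2 fold change 0.38, SE 0.14, edgeR adjusted p = 0.475), and Hnrnpa3 had 48.1 and 68.7 CPM in the KOs and 42.3 and 41.6 CPM in the WTs (0.48, SE 0.17). In both genes the KO and WT values did not overlap, as for 23.3% of all genes in that direction.

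Nonsense-mediated decay removes transcripts with an early stop codon, and the exon junction complex marks where introns were. Of 20 listed genes of these systems 18 were in the tables and tested, 0 were called by edgeR, and 3 had an unadjusted p under 0.05, all higher in KO, beside the same 1360 of 13733 genes with 864 higher, and DESeq2 called 0. The median log2 fold change was 0.02, with 13 positive and 5 negative. The 3 were Upf2 and Upf3b, which link the exon junction complex to the helicase Upf1, and Nbas. Upf2 had 61.7 and 61.8 CPM in the KOs and 44.3 and 50.2 CPM in the WTs (log2 fold change 0.39, SE 0.11, edgeR adjusted p = 0.431). Upf3b had 28.3 and 30.9 CPM in the KOs and 18.9 and 23.6 CPM in the WTs (0.48, SE 0.16), and Nbas 81.7 and 87.1 CPM in the KOs and 60.2 and 72.6 CPM in the WTs (0.35, SE 0.13). Against these lists Hnrnpl, at -1.30, had the lowest log2 fold change, although it did not pass either.

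**Figure D4:**
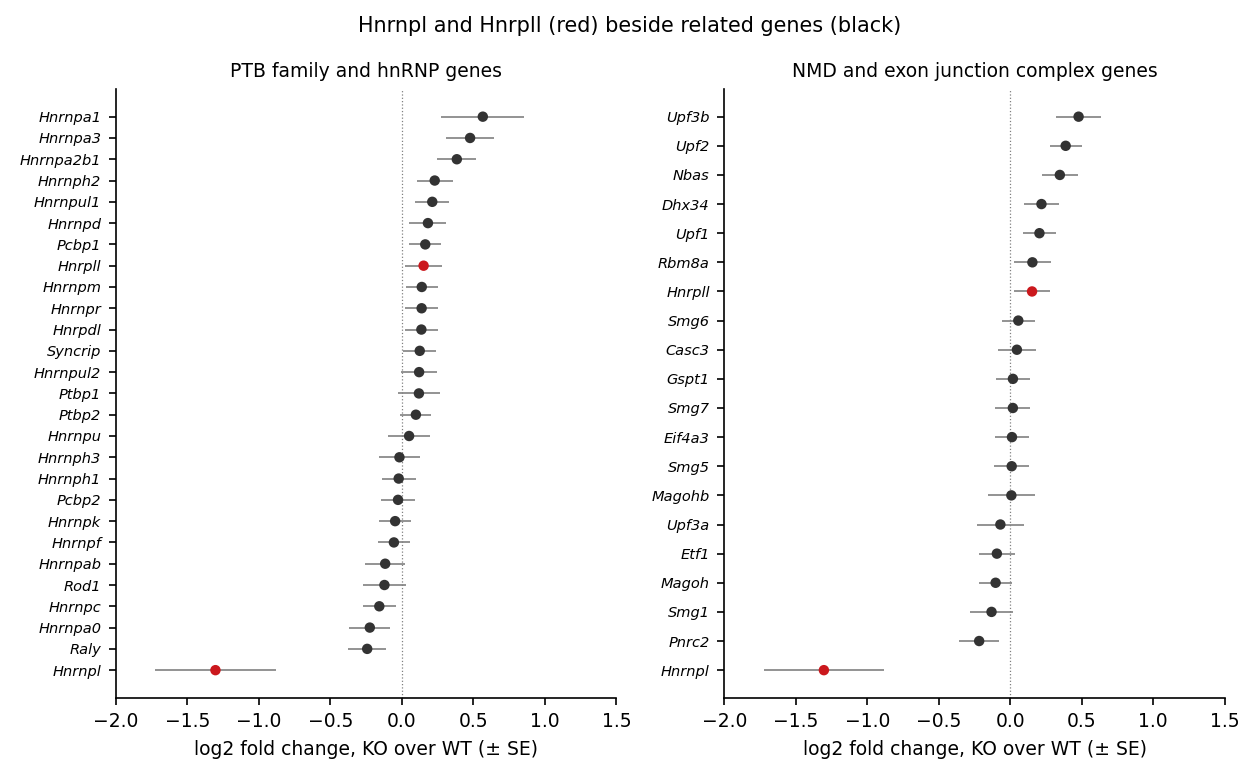
Log2 fold change, KO over WT, of the tested PTB family and hnRNP genes (left) and of the nonsense-mediated decay (NMD) and exon junction complex genes (right), with Hnrnpl and Hnrpll in red in both panels; bars are SE from the edgeR fit (2 KO and 2 WT libraries). Hnrnpl lies at -1.30, apart from all others, and Hnrpll at 0.15 lies among them.

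Few genes had a profile like that of Hnrnpl over the 4 libraries, and many had one like that of Hnrpll. Likeness was measured as the root mean square difference in log2 CPM, each gene centred on its own mean, over 6035 genes with a mean log2 CPM of at least 5, and with 4 libraries it is a description only. The nearest to Hnrnpl was Tcp11l2, at 0.174, with 89.3 and 43.3 CPM in the KOs and 148 and 122 CPM in the WTs. It was followed by Ddit4, an inhibitor of mTORC1 signalling (0.232), with 106 and 70.3 CPM in the KOs and 194 and 207 CPM in the WTs, by Tmcc3 (0.276), with 61.2 and 33.9 CPM in the KOs and 83.6 and 89.7 CPM in the WTs, and by the histone genes Hist1h2ac (0.341) and Hist1h2bb (0.347). All 5 were lowest in KO replicate 2, and none passed the edgeR test over all genes (lowest adjusted p = 0.249, for Ddit4). They were picked for likeness to Hnrnpl over these same libraries, so lower levels in KO follow largely from the choice. Their p-values, by either test, are therefore no separate evidence. By DESeq2, Ddit4 (adjusted p = 4.16e-06) and Tmcc3 (adjusted p = 0.0373) passed. Hnrnpl itself did not pass by DESeq2 (log2 fold change -1.31, adjusted p = 0.379), nor did Hnrpll (0.14, adjusted p = 0.837). Within 0.1 of Hnrnpl there were 0 genes, against 1068 for Hnrpll, and within 0.2 there were 1 and 3829. The measure is not scaled to the size of the change. A gene that varies little, like Hnrpll, therefore has many others near it, and this contrast largely restates the fold changes. The nearest to Hnrpll were Zcchc7, Smc2, a condensin subunit, Chsy1, Pcid2 and Ckap5, a microtubule-binding protein, at 0.0111 to 0.0141.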

How the data were processed

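Per the file headers, the authors deposited for each library raw read counts per RefSeq transcript, from primary alignments (minimum mapping quality 10), beside the reads-per-nucleotide signal and the RPKM value. The authors also deposited raw read counts per known or putative junction. The build is mm9, per the submitters' processing notes; the sources used here name no aligner or strand handling. Ribosomal RNA was depleted, per the labels' protocols, and libraries were amplified for 12 PCR cycles and sequenced on 2 slides, with 2 samples on each.

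The transcript row with the highest total was kept per symbol. The gene test was edgeR 4.0.16 under R 4.3.3 (robust quasi-likelihood, TMM, filter on low counts by group, Benjamini-Hochberg, threshold 0.05), with DESeq2 1.42.0 as an alternative. Junction usage was tested with diffSpliceDGE (minimum 10 reads per junction and 2 junctions per gene), whose natural-log coefficients were turned into log2. Both tests were tried on simulated counts with a fixed, low dispersion and large changes. Those settings do not copy the spread between these KO libraries, so this does not show how the tests perform on the present data. Nothing says whether mice shared a litter, and p-values measure the spread between these mice. Exons were numbered along the known junctions. A count of 0 is taken to allow 3 reads per library. Named genes were the pair, the 5 genes most like each, the PTB members, and the 3 genes of smallest p per list (1 gene of the PTB and hnRNP list is not reported here); the members and lists were chosen with earlier results of these data known.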

Additional observations from a re-analysis of the deposited data

How the results depend on the processing

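Under 11 alternatives the log2 fold change of Hnrnpl stayed negative and that of Hnrpll positive. Leaving out 1 library each, Hnrnpl ran from -2.01 to -0.84 and Hnrpll from 0.07 to 0.25. Neither gene passed in any fit on all 4 libraries. The count of genes called, 1 in all 4 libraries, was 103 with DESeq2, 62 with no filter on low counts, 0 without robust moderation, 3 without small RNA genes, 121 with the replicate number as a block, and from 2 to 427 with 1 library left out. The count of junctions called, 4, was 2 among known junctions only, 10 with the replicate block, and from 3 to 12 with 1 library left out. For the junctions of Hnrnpl and of Hnrpll it was 0 under all 8 alternatives. The difference in the log2 ratio of Hnrpll to Hnrnpl, KO minus WT, ran from 0.91 without KO replicate 2 to 2.23 without KO replicate 1. With reads of known junctions this difference was 1.61. With the replicate block Hnrnpl had -1.42 (edgeR adjusted p = 0.0832) and Hnrpll 0.15. The numbers are not said to pair mice; deviations of same-numbered libraries correlated at 0.368 over 10214 genes. The cause of these shifts was not tested. No share was computed for the extra exons in the sixth introns, because no listed junction joins them. Few reads leave exon 1 of Hnrnpl, which limits its shares.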
